A study of Mus musculus with 9 samples.

Results

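The genes described here are the antioxidant targets of the transcription factor Nrf2 together with Nrf2 itself and its inhibitor Keap1, followed across neonatal mouse aortic valves cultured with a retinoic acid receptor antagonist, with retinoic acid or with vehicle. The 10 genes were listed by name as textbook members of the pathway, and a member was measured where the platform annotation gave a probe set its symbol alone. By that rule 9 of the 10 genes had 1 probe set each, out of 19934 genes with a probe set of their own; G6pdx, which supplies NADPH through the pentose phosphate pathway, was not analysed here. The explants came from C57BL/6J pups at postnatal day 1, and each of the 9 arrays held RNA of the pooled valves of 5 to 6 pups after 48 hours on floating filters. The 3 groups of 3 arrays were LE540, a retinoic acid receptor antagonist whose dose and vehicle the labels do not give, all-trans retinoic acid (ATRA) at 1 µmol/L in DMSO, and DMSO alone at 0.001%. Replicates are labelled as biological, the sex of the pups is not given, and in pooled explants fewer cells of a type and less RNA per cell cannot be told apart.

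Nrf2, encoded by Nfe2l2, is normally held in the cytoplasm by Keap1, which hands it to the Cul3 ubiquitin ligase for degradation. Electrophiles and oxidants modify cysteines of Keap1, Nrf2 then accumulates, pairs with small Maf proteins and binds antioxidant response elements near genes of glutathione synthesis, thioredoxin recycling, quinone detoxification and heme breakdown. Bach1 occupies the same elements as a repressor, above all at Hmox1, and lets go when it binds heme. Slc7a11 is also known as a target of Atf4, the transcription factor of the integrated stress response, which binds amino acid response elements.

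The promoter stretches below show where either element core occurs close to the start sites of the members; how these letters relate to the measured responses was not tested. Promoter windows of 250 bases before to 50 bases after the start came from RefSeq (GRCm38.p6) and were held for 8 of the 10 genes, not for Hmox1 and Gclc. They were searched on both strands for TGACNNNGC, the core of the antioxidant response element, and for TGATGNAA, the core of the amino acid response element. Capitals mark each match, and positions count back from the base before the start.
Slc7a11 (chr3:50443614-50443733, minus strand, positions -120 to -1): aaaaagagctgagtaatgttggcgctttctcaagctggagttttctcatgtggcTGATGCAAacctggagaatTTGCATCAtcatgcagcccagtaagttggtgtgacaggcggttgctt
Gclm (chr3:122245393-122245461, plus strand, positions -164 to -96): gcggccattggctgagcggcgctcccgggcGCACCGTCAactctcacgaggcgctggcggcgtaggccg
Txnrd1 (chr10:82859084-82859152, plus strand, positions -122 to -54 of the second of 3 RefSeq starts): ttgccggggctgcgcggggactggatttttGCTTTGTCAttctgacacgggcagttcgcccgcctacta
Nfe2l2 (chr2:75704865-75704913, minus strand, positions -250 to -202): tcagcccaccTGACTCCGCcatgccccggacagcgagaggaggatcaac
Srxn1 (chr2:152105542-152105570, plus strand, positions 19 to 47, beyond the start): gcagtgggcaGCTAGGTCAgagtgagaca

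The Slc7a11 window held 2 copies of the amino acid response element core, on opposite strands at -66 and -47, and no TGACNNNGC. Of all 32851 promoter windows 3.97% held TGATGNAA at least once and 0.07% held it 2 or more times. TGACNNNGC stood in the windows of Gclm, Txnrd1, Srxn1, Nfe2l2 and G6pdx, and 12.4% of all windows held it. Counted per gene over any start, 5 of 8 members held TGACNNNGC, against 14% of 27025 genes. The windows of Nqo1 and Keap1 held neither core. A match is a description of these letters and not a binding site shown here.

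Values are RMA intensities on a linear scale, and differences were tested on log2 values with limma in 1 model of 3 groups over all 9 arrays. The threshold was an adjusted p (Benjamini-Hochberg, over all 23397 probe sets with a listed gene) under 0.1, and "rose" and "fell" are kept for those. Array medians were 123.61 to 128.13, and pairwise r between arrays was 0.958 to 0.990 over probe sets, which are not independent replicates. LE540 replicate 1 stood apart on the first principal component at 63.7, with the other arrays between -21.5 and 13.9. On the second component (19.4% of the variance) replicate 2 lay at -33.1 in LE540, -17.9 in ATRA and -18.2 in DMSO. The other arrays lay between -1.1 and 33.3 on it, so the replicate 2 arrays of all 3 groups differed alike. The cause was not tested. All 14 listed valve interstitial markers, Postn, Dcn and Lum among them, averaged above the lower quartile of the arrays (57.7 to 63.0), but so did all 19 cardiomyocyte, 20 endothelial and 8 smooth muscle markers, so this level does not tell valve from neighbouring tissue.

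LE540 raised Hmox1, the oxygenase that breaks heme down to biliverdin, iron and carbon monoxide. Hmox1 (probe set 10572897) had 4150, 2514 and 3405 intensity units in the LE540 arrays, against 1083, 1139 and 832 in the DMSO arrays. Every LE540 array lay above every DMSO array, as for 6.74% of tested probe sets. The rise was 3.26-fold, with means of 3357 ± 819 in LE540 and 1018 ± 164 in DMSO arrays (SD, n = 3 each, log2 change 1.70, SE 0.19, limma adjusted p = 0.0917). Hmox1 was the 1 member of 9 that passed in LE540 vs DMSO, where 0.0299% of all tested probe sets passed. It ranked 2 by p-value among them. The log2 change stayed between 1.54 and 1.90 with any 1 array left out, but the call was lost without DMSO replicate 1 (adjusted p = 0.378), DMSO replicate 2 (0.163), DMSO replicate 3 (0.437), ATRA replicate 2 (0.164), ATRA replicate 3 (0.134) or LE540 replicate 1 (0.22). It was also lost with the replicate block (adjusted p = 0.133), with only the compared arrays (0.228), after quantile normalization (0.142), with all rows tested (0.111), with log2(value + 16) (0.112) and with each of the 3 marker scores as a covariate (0.147 to 0.26).

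Slc7a11, the cystine import subunit of the xc- antiporter that feeds glutathione synthesis, was as far from DMSO on average but far more uneven. Slc7a11 (10498024) had 1890, 989 and 1658 units in the LE540 arrays and 281, 1039 and 271 units in the DMSO arrays. DMSO replicate 2 lay above LE540 replicate 2, so the groups overlapped. The log2 change was 1.76 (SE 0.58, 95% confidence interval 0.43 to 3.09) and did not pass (adjusted p = 0.529). Without DMSO replicate 2 the log2 change was 2.40 (adjusted p = 0.385).

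The other 5 target members did not pass in LE540 vs DMSO, although each had a log2 change above 0. Gclm, the modifier subunit of the glutathione-synthesizing glutamate-cysteine ligase, had 626, 603 and 780 units in the LE540 arrays, against 497, 748 and 375 in the DMSO arrays. Its log2 change was 0.36 (95% confidence interval -0.20 to 0.92, adjusted p = 0.675). Gclc, the catalytic subunit of the same ligase, had 702, 609 and 811 units in the LE540 arrays and 591, 842 and 450 units in the DMSO arrays. Its log2 change was 0.21 (-0.27 to 0.69, adjusted p = 0.772), and for both subunits DMSO replicate 2 lay among or above the LE540 arrays.

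Srxn1, Txnrd1 and Nqo1 each overlapped between LE540 and DMSO arrays. Srxn1, the sulfiredoxin that restores overoxidized peroxiredoxins, had 825, 700 and 536 units in the LE540 arrays, against 440, 661 and 359 in the DMSO arrays (log2 change 0.52, 95% confidence interval -0.02 to 1.07, adjusted p = 0.569). Txnrd1, the cytosolic thioredoxin reductase, had 735, 682 and 703 units in the LE540 arrays, against 499, 754 and 451 in the DMSO arrays (0.35, -0.07 to 0.78, adjusted p = 0.608). Txnrd1 varied little among the LE540 arrays, at 707 ± 26.6 units (SD, n = 3). Nqo1, the quinone reductase that is the usual reporter of Nrf2 activity, had 276, 235 and 134 units in the LE540 arrays, against 124, 212 and 113 in the DMSO arrays (0.52, -0.16 to 1.20, adjusted p = 0.631). Nqo1 lay close to the array medians, where signal over background is unknown.

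The regulators Nfe2l2 and Keap1 did not pass either. Nfe2l2 had 846, 1453 and 1245 units in the LE540 arrays and 1005, 1821 and 1300 units in the DMSO arrays (log2 change -0.21, 95% confidence interval -0.85 to 0.42, adjusted p = 0.834). In each group the replicate 2 array held the highest Nfe2l2 value. Keap1 was the steadiest member, between 202 and 220 units in the LE540 arrays and between 207 and 238 units in the DMSO arrays (-0.05, -0.26 to 0.17, adjusted p = 0.899). These are transcript levels, and Nrf2 is controlled largely through the stability of its protein, which the arrays do not measure.

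**Figure D1:**
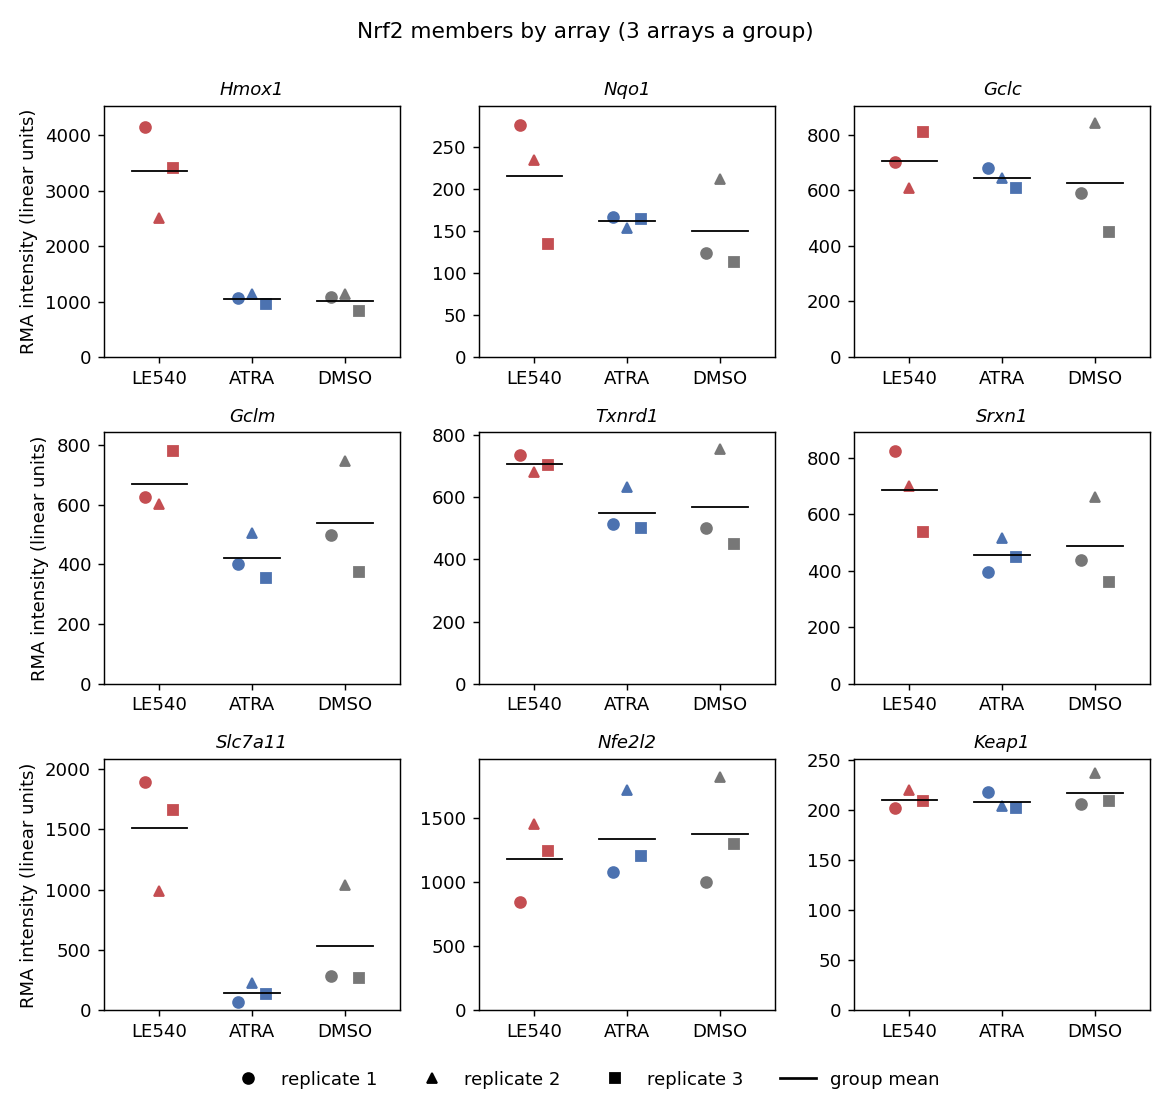
RMA intensity (linear axis from 0) of each of the 9 measured members in every array, by group, with symbols for the replicate number and a line at the group mean. Hmox1 separates the LE540 arrays from the ATRA and DMSO arrays, Slc7a11 is lowest in the ATRA arrays, and DMSO replicate 2 is the highest DMSO array in all 9 panels.

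DMSO replicate 2 held the highest DMSO value of all 9 members. Relative to the DMSO mean of each gene, the median of the 5 other target members (Nqo1, Gclc, Gclm, Txnrd1 and Srxn1) was 0.41, 0.30 and 0.34 log2 in the LE540 arrays and -0.10, 0.49 and -0.39 in the DMSO arrays. The value of DMSO replicate 2 thus exceeded that of each LE540 array. Hspa1a, an inducible heat shock protein, also had 898.5 units in DMSO replicate 2, against 215 and 218 in the other DMSO arrays; its part in the result was not tested. Without that array the log2 changes in LE540 vs DMSO were 0.80 for Nqo1, 0.77 for Srxn1, 0.62 for Gclm, 0.57 for Txnrd1 and 0.45 for Gclc, and none of these 5 passed (adjusted p = 0.476 to 0.648).

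Hmox1 and Slc7a11 stood clear of the remaining targets in each LE540 array. Hmox1 was 2.04, 1.32 and 1.76 log2 above its DMSO mean in LE540 replicates 1, 2 and 3, and Slc7a11 was 2.14, 1.20 and 1.95 above its own. Both therefore exceeded the 0.30 to 0.41 of the other targets in the same arrays. In the DMSO arrays the deviations of Hmox1 were 0.10, 0.18 and -0.28, and those of Slc7a11 -0.61, 1.27 and -0.66. Slc7a11 thus shared the high value of DMSO replicate 2 with the 5 other targets (0.45 for Txnrd1 to 0.56 for Nqo1), and Hmox1 did so only slightly. No test was made of these differences between genes.

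**Figure D2:**
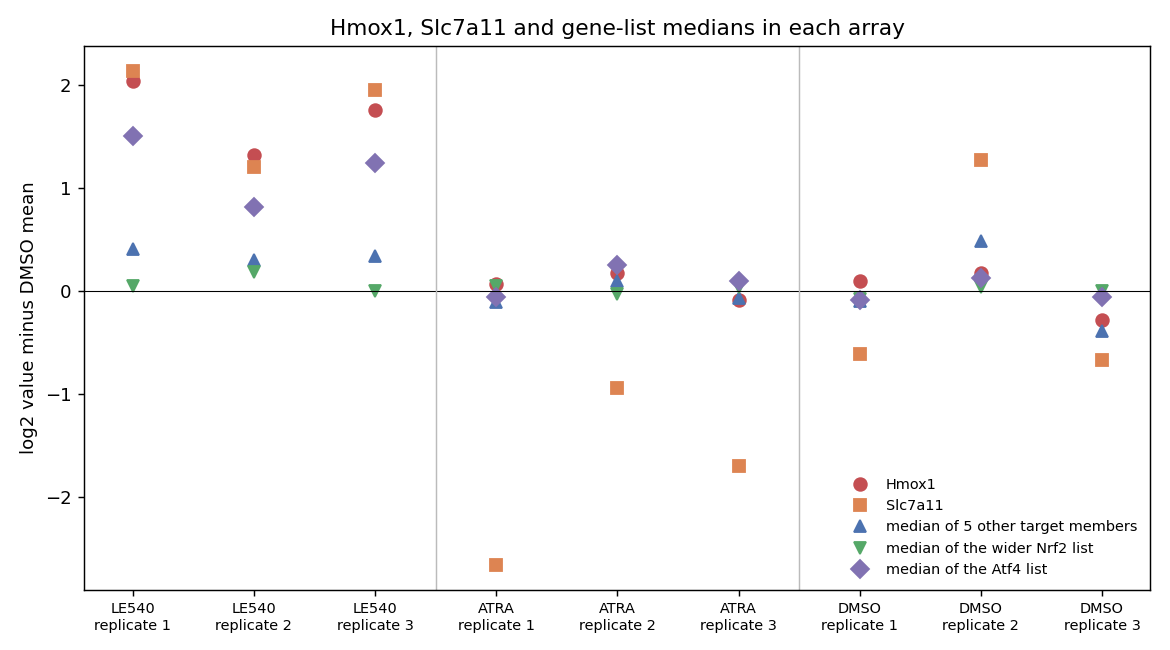
Log2 value minus the DMSO mean in each array for Hmox1, Slc7a11, the median of 5 other target members, the median of the wider Nrf2 list and the median of the Atf4 list. In the LE540 arrays Hmox1 (1.32 to 2.04) and Slc7a11 (1.20 to 2.14) lie nearer the Atf4 list median (0.82 at its lowest) and above the median of the 5 other targets (0.30 to 0.41).

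Set directly against ATRA, LE540 raised Slc7a11 and Hmox1. Slc7a11 had 1890, 989 and 1658 units in the LE540 arrays, against 68.1, 223 and 133 in the ATRA arrays. No ATRA array came near an LE540 array. The rise was 11.5-fold (log2 change 3.53, SE 0.58, adjusted p = 0.0608), the second largest rise of all tested probe sets by log2 change. ATRA replicate 1 lay near the lower quartile of the arrays (57.7 to 63.0) and ATRA replicate 3 near their medians (124 to 128). Signal over background is unknown there, so the size of the fold and its rank are uncertain. Hmox1 had 1060, 1139 and 947 units in the ATRA arrays and was 3.14-fold higher with LE540 (log2 change 1.65, SE 0.19, adjusted p = 0.0171). Hmox1 passed under each of 21 alternatives that refitted the model, with adjusted p of 0.00843 to 0.0978. The Slc7a11 call was lost without LE540 replicate 1 (adjusted p = 0.21), LE540 replicate 3 (0.101), ATRA replicate 1 (0.185), ATRA replicate 3 (0.174), DMSO replicate 1 (0.121) or DMSO replicate 3 (0.109).

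These were 2 of 9 members past the threshold in LE540 vs ATRA, where 0.603% of all tested probe sets passed and 0.192% passed upward. Blocking on the replicate number, 221 probe sets passed in place of 141, and both members still did (adjusted p = 0.0706 for Slc7a11). Gclm, Txnrd1 and Srxn1 also had every LE540 array above every ATRA array, as 6.24% of tested probe sets did, but did not pass. Gclm averaged 670 ± 96.7 units in LE540 and 420 ± 76.0 in ATRA arrays (SD, n = 3 each, log2 change 0.68, 95% confidence interval 0.12 to 1.24, adjusted p = 0.421). Srxn1 averaged 687 ± 145 units in LE540 and 455 ± 59.8 in ATRA arrays (0.58, 0.04 to 1.12, adjusted p = 0.482). Txnrd1 averaged 707 ± 26.6 units in LE540 and 549 ± 71.6 in ATRA arrays (0.37, -0.06 to 0.80, adjusted p = 0.588). The values of Nqo1 (0.35), Gclc (0.13), Keap1 (0.02) and Nfe2l2 (-0.19) were smaller still, and their groups overlapped.

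Retinoic acid by itself left no member past the threshold. In ATRA vs DMSO 0 of 9 members passed in limma, where 0.0812% of tested probe sets did, and 1 member, Slc7a11, had an unadjusted p under 0.05, as 4.7% of tested probe sets did. Slc7a11 had 68.1, 223 and 133 units in the ATRA arrays, against 281, 1039 and 271 in the DMSO arrays. The limit given above for its low ATRA values holds here too. All ATRA arrays lay below all DMSO arrays, as for 6.34% of tested probe sets. The log2 change was -1.76 (SE 0.58, 95% confidence interval -3.09 to -0.44, adjusted p = 0.897), and it was -1.13 without DMSO replicate 2.

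The other members had smaller changes with ATRA, none of which passed. Hmox1 averaged 1049 ± 96.5 units in ATRA and 1018 ± 164 in DMSO arrays (SD, n = 3 each, log2 change 0.05, 95% confidence interval -0.39 to 0.50, adjusted p = 0.999). Gclm had 402, 504 and 355 units in the ATRA arrays, against 497, 748 and 375 in the DMSO arrays (-0.32, -0.88 to 0.24, adjusted p = 0.999). Nqo1 was tight at 162 ± 6.81 units in ATRA arrays and looser at 150 ± 54.5 in DMSO arrays (0.17, -0.51 to 0.85). Gclc (0.08), Txnrd1 (-0.02), Nfe2l2 (-0.03), Srxn1 (-0.06) and Keap1 (-0.06) had log2 changes within 0.1 of 0. The ATRA and LE540 comparisons with DMSO share the DMSO arrays, so the changes of Slc7a11 in them are not independent. A high or low DMSO array moves both changes the same way, and neither change passed. The part of single DMSO arrays in their signs was not tested. LE540 vs ATRA reuses the arrays of both treatments.

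**Figure D3:**
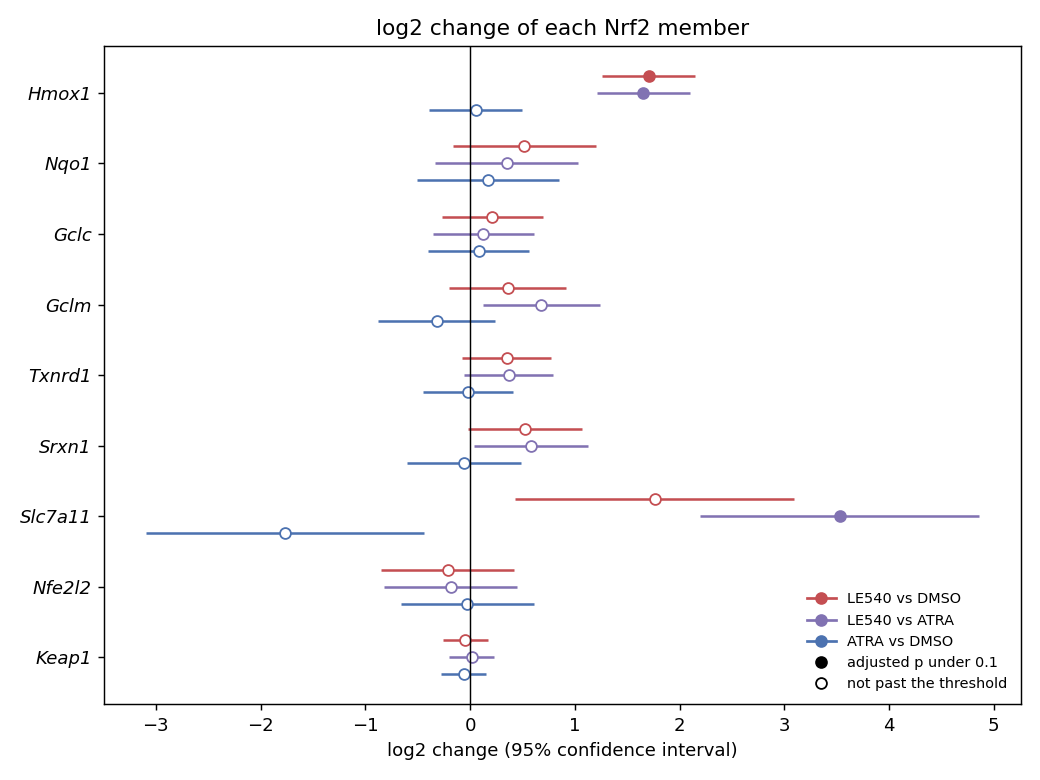
Log2 change with its 95% confidence interval for each member in LE540 vs DMSO, LE540 vs ATRA and ATRA vs DMSO, with filled points for an adjusted p under 0.1. Hmox1 is filled in both LE540 comparisons and Slc7a11 in LE540 vs ATRA only, and the intervals of Nqo1, Gclc, Txnrd1, Nfe2l2 and Keap1 include 0 throughout.

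As a group, the members had a median log2 change of 0.36 in LE540 vs DMSO, with 7 of 9 above 0, against a median of 0.02 and 54% above 0 over all 19934 genes (54.7% of probe sets). In LE540 vs ATRA the median was 0.37, with 8 of 9 above 0, against 0.03 and 56.3% over all genes (56.9% of probe sets). In ATRA vs DMSO it was -0.03, with 3 of 9 above 0, against -0.01 and 48.1% (48.5% of probe sets). Without DMSO replicate 2 the median in LE540 vs DMSO was 0.62, and the ATRA vs DMSO median turned to 0.19.

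No gene of the wider Nrf2 list rose in either LE540 comparison. So few probe sets rose at all (0.0299% in LE540 vs DMSO, 0.192% in LE540 vs ATRA) that 0 of 40 does not set the list apart. A further 40 measured targets, in lists made with earlier results of these data known, had a median log2 change of 0.07 in LE540 vs DMSO, with 25 above 0 and 15 below. None of the 40 passed in limma in that comparison, and 9 had an unadjusted p under 0.05 (8.8% of all tested probe sets did), of which 7 were higher and 2, Mgst1 and Aldh3a1, lower. In LE540 vs ATRA 26 of 40 were above 0 (median 0.14), 0 passed upward and 1 fell, as 0.41% of all tested probe sets did. In that comparison 14 had an unadjusted p under 0.05 (9.54% of all tested probe sets did). Every LE540 array lay above every ATRA array for 10 of the 40 and below for 4 (1249 and 1097 of all 19934 genes). Against the DMSO arrays these counts were 5 and 1 of the 40 (1237 and 1204 of all genes). In ATRA vs DMSO 22 of 40 were above 0 (median 0.05) and 0 passed, where 0.0812% of all tested probe sets did. Of the 40, 4 had an unadjusted p under 0.05 (4.7% of all tested probe sets did). The log2 changes there ran from -0.97 for Aldh3a1 (adjusted p = 0.932) to 1.32 for Akr1b8 (adjusted p = 0.652), both named after their values were seen.

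Among glutathione genes 7 of 10 were above 0 in LE540 vs DMSO (median 0.19). Mgst1, a membrane-bound glutathione transferase, fell with LE540 against ATRA: it had 312, 544 and 335 units in the LE540 arrays, against 874, 828 and 718 in the ATRA arrays (log2 change -1.06, SE 0.20, adjusted p = 0.0945). In LE540 vs DMSO Mgst1 was at -0.50 (adjusted p = 0.548). Other glutathione genes, named after their values were seen, lay on the other side of 0. Gsta4, a glutathione transferase for lipid peroxidation products, had 1390, 605 and 792 units in the LE540 arrays, against 347, 815 and 232 in the DMSO arrays. DMSO replicate 2 again overlapped the LE540 arrays, and the log2 change of 1.12, the second largest of the wider list, did not pass (SE 0.48, adjusted p = 0.56). Gsta3, another transferase, was at 0.66 (adjusted p = 0.549) and Gpx2, a glutathione peroxidase, at 0.39 (adjusted p = 0.548). Of the thioredoxin genes Txn1, thioredoxin itself, was at -0.01 and Prdx1, a peroxiredoxin, at 0.13 in LE540 vs DMSO, both with adjusted p above the threshold (0.983 and 0.675).

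The largest log2 change of the wider list in LE540 vs DMSO was that of Sqstm1. Sqstm1, the p62 autophagy receptor that also binds Keap1, had 3795, 2129 and 2191 units in the LE540 arrays, against 995, 1158 and 1280 in the DMSO arrays. The groups did not overlap, as for 6.74% of tested probe sets in this direction, but the log2 change of 1.20 did not pass (SE 0.21, adjusted p = 0.23). Abcc4, an efflux pump for organic anions, was at 0.90 (SE 0.21, adjusted p = 0.375), and Esd, an esterase that completes formaldehyde detoxification, at 0.30 (adjusted p = 0.582). Aldh3a1, an aldehyde dehydrogenase, was at -0.79 (adjusted p = 0.556).

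The genes that supply NADPH were mixed, with 2 of 5 above 0 in LE540 vs DMSO. Taldo1, the transaldolase of the pentose phosphate pathway, was at 0.76 (SE 0.27, adjusted p = 0.541), and Idh1, the cytosolic isocitrate dehydrogenase, at -0.74 (SE 0.34, adjusted p = 0.571). Heme and iron genes, the nearest in function to Hmox1, had 5 of 8 above 0 (median 0.10), against 54% of all genes. Ftl1, the ferritin light chain that stores released iron, had 7530, 5665 and 5195 units in the LE540 arrays, against 4538, 3964 and 4785 in the DMSO arrays. Its groups did not overlap, as for 2 of these 8 genes and 6.74% of tested probe sets in this direction. The log2 change of Ftl1 was 0.45 (SE 0.15, adjusted p = 0.535). Slc40a1, the iron exporter ferroportin, was at -0.38 (adjusted p = 0.757).

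Partners and repressors of Nrf2 had 6 of 10 measured genes above 0 in LE540 vs DMSO. In limma 0 of the 10 passed, where 0.0299% of all tested probe sets did, and 0 had an unadjusted p under 0.05 (8.8% of all tested probe sets did). Maff, a small Maf protein, was at 0.63 (SE 0.28, adjusted p = 0.564). Nfe2l1, a factor related to Nrf2, was at 0.25 (SE 0.16, adjusted p = 0.661). Bach1, the repressor of Hmox1, which is named here outside the naming rule, had 313, 320 and 299 units in the LE540 arrays and 365, 343 and 255 units in the DMSO arrays (log2 change -0.03, adjusted p = 0.961).

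Genes of the Atf4 and metal response lists were among those that rose with LE540; no test was made between lists. Of 28 genes of the Atf4-driven integrated stress response, 28 were above 0 in LE540 vs DMSO (median 1.14), 3 (Ddit3, Mthfd2 and Slc6a9) rose, where 0.0299% of all tested probe sets did, and 26 had every LE540 array above every DMSO array, as 6.74% of tested probe sets did. The counts of genes that rose in LE540 vs DMSO rest on 7 called probe sets in all, a total that ran from 0 to 297 with each array left out and was 0 after quantile normalization. In LE540 vs ATRA 10 of the 28 rose (median 1.27), where 0.192% of all tested probe sets rose (median of all genes 0.03). Ddit3, a transcription factor of that response, rose by 1.78 log2 against DMSO (SE 0.21, adjusted p = 0.0917) and 2.01 against ATRA (adjusted p = 0.0123). Mthfd2, a mitochondrial folate enzyme, rose by 1.78 against DMSO (adjusted p = 0.0917), whereas Asns, asparagine synthetase, at 2.12, did not pass there (adjusted p = 0.122) and rose by 2.01 against ATRA (adjusted p = 0.0451).

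Slc3a2, the heavy chain with which Slc7a11 forms its antiporter, had 3125, 1863 and 2433 units in the LE540 arrays, against 426, 935 and 821 in the ATRA arrays and 728, 939 and 666 in the DMSO arrays. It rose by 1.81 log2 against ATRA (SE 0.31, adjusted p = 0.0619) and did not pass against DMSO (1.65, adjusted p = 0.235). Unlike for Slc7a11, its ATRA and DMSO values overlapped, with a log2 change of -0.16 in ATRA vs DMSO (adjusted p = 0.999).

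Of 6 metal response genes, 2 rose and 0 fell in LE540 vs DMSO, where 0.0299% of all tested probe sets rose and 0% fell. In LE540 vs ATRA 3 rose and 1 fell, where 0.192% of all tested probe sets rose and 0.41% fell. Mt2, a metallothionein, rose by 3.62 log2 against DMSO (SE 0.39, adjusted p = 0.0917), and Mt1 by 2.39 (SE 0.29, adjusted p = 0.0917). Slc30a1, the zinc exporter, rose by 0.92 against ATRA (adjusted p = 0.0401), while Slc39a10, a zinc importer, fell by 1.73 on the log2 scale (adjusted p = 0.0243). Heat shock genes had 8 of 10 above 0 in LE540 vs DMSO and 0 past the threshold in limma. Of these 10, 1 had an unadjusted p under 0.05, as 8.8% of all tested probe sets did. Hspb1, a small heat shock protein, was at 1.57 (SE 0.52, adjusted p = 0.529) and Hspa1a at 0.68 (adjusted p = 0.716). Aryl hydrocarbon receptor genes, a second xenobiotic pathway that can induce Nqo1, had 3 of 6 above 0 and 0 past the threshold in limma. Of these 6, 1 had an unadjusted p under 0.05, again against 8.8% of all tested probe sets. Cyp1b1 was at -0.81 (adjusted p = 0.641) and Cyp1a1 at 0.28 (adjusted p = 0.535), both being cytochrome P450 enzymes.

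**Figure D4:**
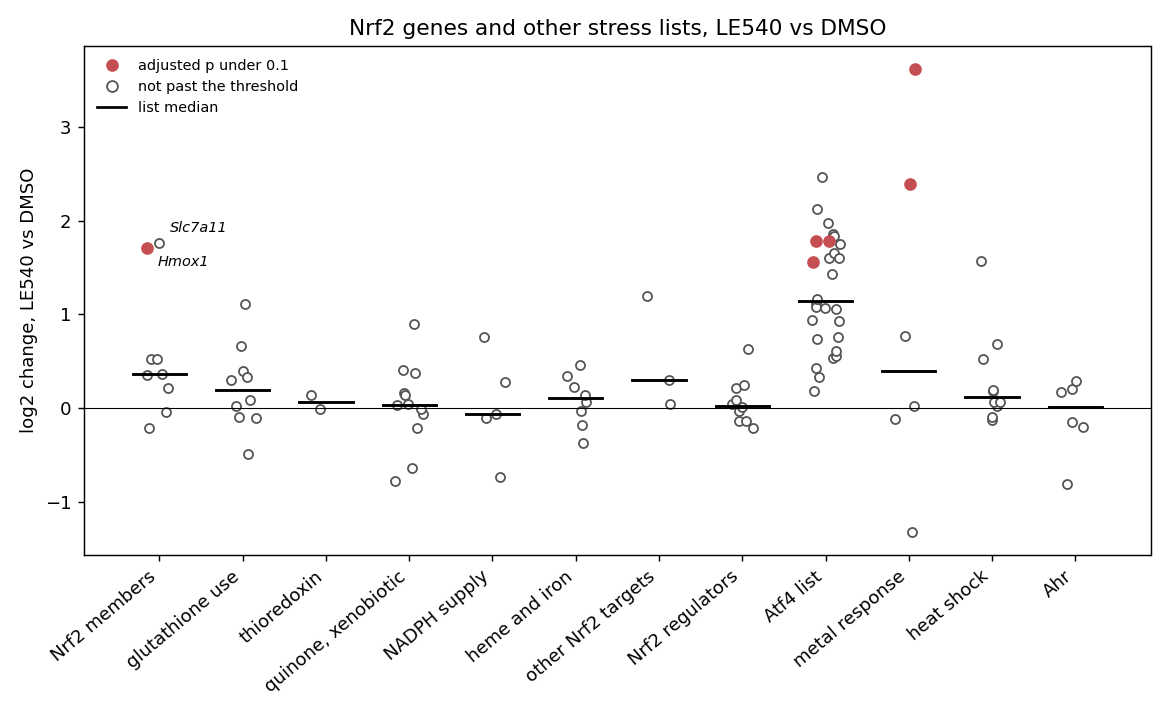
Log2 change in LE540 vs DMSO of each measured gene of the Nrf2 members, the wider Nrf2 lists, the Nrf2 regulators and 4 other stress lists, with a line at the list median and filled points for an adjusted p under 0.1. Hmox1 and Slc7a11 lie at 1.70 and 1.76, within the spread of the Atf4 list (median 1.14) and above all 40 genes of the wider Nrf2 lists (highest value 1.20).

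The amino acid response element core seen in the Slc7a11 window stood in 7 of 23 Atf4-list genes with a RefSeq window (30.4%), in 1 of 35 wider Nrf2 genes (2.86%) and in 4.51% of all 27025 genes. The antioxidant response element core stood in 7 of 23 Atf4-list genes (30.4%), in 9 of 35 wider Nrf2 genes (25.7%) and in 14% of all genes. In none of these 23 Atf4-list genes did TGATGNAA occur 2 or more times in 1 window, as it did for Slc7a11.

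The genes whose log2 values were most like those of Hmox1 over the 9 arrays were Slc6a9, a glycine transporter (Pearson r = 0.988), Slc25a33, a mitochondrial nucleotide carrier (0.979), Lonp1, a mitochondrial protease (0.977), Ddit3 (0.973) and Star, the steroidogenic acute regulatory protein (0.970). Among the other members Slc7a11 had the highest r with Hmox1 (0.805), in place 340 of all single-symbol probe sets, followed by Srxn1 (0.758), Txnrd1 (0.727), Gclm (0.698), Nqo1 (0.551) and Gclc (0.468). Keap1 (-0.13) and Nfe2l2 (-0.34) had negative values.

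For Slc7a11 the list was led by Arih2, a ubiquitin ligase (0.957), Reps1, an endocytosis adaptor (0.954), Gch1, the first enzyme of tetrahydrobiopterin synthesis (0.944), Il17ra, an interleukin receptor (0.940), and Mapkapk5, a protein kinase (0.940). Gclm was the most similar member (0.870), ahead of Txnrd1 (0.807) and Hmox1 (0.805). Gch1 had 565, 556 and 471 units in the LE540 arrays, 121, 331 and 150 in the ATRA arrays and 251, 435 and 264 in the DMSO arrays, so replicate 2 was its highest ATRA and DMSO array, as for Slc7a11. These correlations describe 9 arrays that share 3 treatments, so they mix the differences between groups with those within them.

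Macrophages, which recycle heme and express much Hmox1, were followed through 18 markers. Their summed level was 3769 to 4985 units in LE540 arrays, 3122 to 5009 in ATRA arrays and 3640 to 5669 in DMSO arrays, and 12 of 18 were lower in LE540 than in DMSO. The markers did not move together, so the sum can hide opposite changes. In LE540 replicate 1 Cd68 had 1699 units (277 to 881 in DMSO arrays) and Lyz2 219 (464 to 1797 in DMSO arrays). No intensity reaches 0 on these arrays; Cd163 and Itgam averaged below the lower quartile. With the macrophage markers' score as a covariate the Hmox1 log2 change in LE540 vs DMSO was 1.63 (adjusted p = 0.26). The summed erythroid level, over 5 measured of 10 listed markers, was 448 to 510 units in LE540 arrays and 470 to 547 in DMSO arrays.

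Cardiomyocyte markers summed to 15290 to 26566 units in LE540 arrays, 14703 to 25621 in ATRA arrays and 15323 to 30575 in DMSO arrays. With their score as a covariate Hmox1 was at 1.71 (adjusted p = 0.179). Endothelial markers summed to 4258 to 7059 units in LE540 arrays, 5880 to 10215 in ATRA arrays and 4765 to 7356 in DMSO arrays, and smooth muscle markers to 2108 to 3228, 3735 to 7275 and 2137 to 3958 in the same order of groups. Valve interstitial markers summed to 17062 to 26747 units in LE540 arrays, against 31093 to 34728 in ATRA and 23933 to 29711 in DMSO arrays. Of these 14, 12 were lower and 2 higher in LE540 than in DMSO (median log2 change -0.26, all genes 0.02). Against ATRA 13 were lower and 1 higher (median -0.61, all genes 0.03). Every LE540 array lay below every ATRA array for 7 of the 14, as for 1097 of all 19934 genes. Of the 14, 1, Vcan, a proteoglycan of the valve matrix, fell in LE540 vs ATRA (log2 change -1.29, adjusted p = 0.0608), as 0.41% of all tested probe sets did. No fit used the valve interstitial score as a covariate. The part of these markers in the results was not tested. Xist ranged from 61.6 to 1652 units in LE540, 85.7 to 1393 in ATRA and 2294 to 2903 in DMSO arrays, and every DMSO array lay above every LE540 and ATRA array. The 3 measured Y-linked genes summed to 213 to 1334 units in LE540, 533 to 1411 in ATRA and 110 to 613 in DMSO arrays. By these sex-linked genes the sex make-up of the pools may differ between groups. In comparisons with DMSO it cannot be fully told apart from treatment. With a score of the 3 Y-linked genes as a covariate Hmox1 was at 1.67 (adjusted p = 0.147) and Slc7a11 at 2.10 (adjusted p = 0.355) in LE540 vs DMSO.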

How the data were processed

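The members and gene lists were chosen with earlier results of these data known, so no list is independent evidence. The deposited values are RMA intensity values on a linear scale, 1 per probe set and array; per the submitters' processing notes they were made with Affymetrix Expression Console 1.1 and RMA, which corrects background, quantile-normalizes arrays and summarizes probes. No annotation or build is named there. Depth does not apply to arrays, and 3 arrays a group limit the precision.

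Log2 values of 23397 of 28270 rows, those with a listed gene symbol, were fitted with limma 3.58.1 in R 4.3.3 (lmFit, eBayes, 6 residual and 2.725 prior degrees of freedom), giving LE540 vs DMSO, LE540 vs ATRA and ATRA vs DMSO, two-sided. The threshold, an adjusted p under 0.1, is the false discovery rate of the series' design text, whose fold limit was not applied. The probe set with the highest mean stood for a gene; of 21780 single-symbol probe sets 21689 had an Entrez identifier in the RefSeq table. The fit was tested on simulated data.

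All members are named whatever their values. From each other list up to 4 passing genes, or else the 2 with the largest change in LE540 vs DMSO, are named, and for Hmox1 and Slc7a11 the 5 most correlated genes. Deviations of same-numbered arrays from their group means had r of 0.261, 0.282 and 0.269 in LE540 vs ATRA and 0.143, 0.342 and 0.22 in ATRA vs DMSO. In LE540 vs DMSO they were 0.00946, 0.215 and 0.126. Arrays of different numbers were not compared in this way, so these values cannot settle whether the arrays were paired. The main fit has no pairing, and the replicate block is an alternative. Alternatives covered the arrays used, normalization, filters, prior, weights, thresholds, covariates and each array left out.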

Additional observations from a re-analysis of the deposited data

How the results depend on the processing

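The direction of Hmox1 and Slc7a11 in LE540 vs DMSO held under all 21 refits, but the Hmox1 call did not. Its log2 change and adjusted p were 1.70 and 0.228 with only the compared arrays, 1.65 and 0.142 after quantile normalization, 1.70 and 0.111 with all rows tested, 1.70 and 0.133 with the replicate block, 1.67 and 0.147, 1.71 and 0.179, and 1.63 and 0.26 with the Y-linked, cardiomyocyte and macrophage scores, and 1.69 and 0.112 with log2(value + 16). Under each of these, and at an adjusted p under 0.05, 0 members passed there in limma. The cause was not tested, apart from the smaller number of arrays or larger number of tests that 2 of these settings bring. Over all probe sets 7 passed in LE540 vs DMSO, but 1 with only the compared arrays, 1 with the replicate block, and 0 after quantile normalization, with all rows, at 0.05, with the cardiomyocyte or macrophage score and with log2(value + 16). In LE540 vs ATRA 141 passed, but 25 with only the compared arrays, 221 with the replicate block, 60 at 0.05 and 57 with the cardiomyocyte score; 1 member passed in place of 2 with only the compared arrays, at 0.05, and with the cardiomyocyte or macrophage score. In ATRA vs DMSO 19 passed, but 9 with only the compared arrays, 9 above the median level, 71 with array weights, 29 with the replicate block, 8 at 0.05, 7 with the Y-linked and 8 with the cardiomyocyte score. With each array left out in turn, Hmox1 in LE540 vs DMSO ran from 1.54 to 1.90 and the member median from 0.20 to 0.62; members past the threshold ran from 0 to 1 in LE540 vs DMSO and from 1 to 2 in LE540 vs ATRA, and all probe sets from 0 to 297, 54 to 278 and, in ATRA vs DMSO, 4 to 22. The replicate block changed no other member call. No member had several probe sets of its own, so that alternative gave no value. Signal over background is unknown without detection calls.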
